A study of Mus musculus with 30 samples.

Results

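The change of the C59 effect between 6 h and 12 h was measured in forelimb buds of mouse embryos by polyA RNA-sequencing. Members were chosen by label: 12 of the 30 libraries of the time course, 3 each of DMSO at 6 h, C59 at 6 h, DMSO at 12 h and C59 at 12 h. The mice were WT Swiss Albino in all 4 groups, the pregnant females were injected when the embryos were at stage E10.5, and the limb buds were dissected 6 h or 12 h after that injection. C59 is short for Wnt-C59, a small molecule that blocks porcupine. The vehicles were not identical. Controls received DMSO in PBS, while a C59 stock in DMSO was diluted in PBS that also held methylcellulose, Tween-20 and DMSO, so the drug and its vehicle cannot be told apart here. Per the study's methods, embryos of both sexes were used, limb buds were stage-matched and RNA of each replicate came from 1 pair of forelimb buds, although 4 of the 12 libraries held RNA of both sexes, which RNA of 1 embryo alone would not hold. Where that RNA came from was not tested. No label ties a library to a litter, and p-values measure the spread between these samples.

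WNT proteins must receive a lipid from porcupine before they can leave the cell and bind Frizzled receptors. In the canonical branch, that binding stabilizes β-catenin, which switches on target genes together with TCF/LEF factors. Limb mesenchyme close to the WNT-producing ectoderm goes on dividing, and cartilage forms first in the core, out of its reach. WNT signals also feed the loop in which SHH from the posterior mesenchyme, the BMP antagonist GREM1 and FGFs from the apical ectodermal ridge maintain each other.

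The quantity followed throughout is the change of effect, which is the log2 fold change of C59 against DMSO at 12 h minus that at 6 h. A positive change of effect means that C59 limb buds moved up relative to controls between 6 h and 12 h. A gene passed when its Benjamini-Hochberg adjusted p was below 0.05 (edgeR quasi-likelihood test over 13565 protein-coding autosomal genes, two-sided), and it was called when it also changed by more than 1 on the log2 scale. Levels are given as CPM, a gene's counts relative to the library total after TMM scaling, values after ± are the standard error (SE) of a log2 value, and gene positions are on mm10 (GRCm38).

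The 12 libraries held 18188636 to 25290624 counts, and pairs of replicates all differed by more than counting noise, by 3.5 to 10.6 in chi-square per degree of freedom. *Tbx5* of the forelimb stood at 205 to 326 CPM and *Prrx1* of limb mesenchyme at 544 to 836 CPM, while *Pitx1* of the hindlimb did not exceed 1.79 CPM. The sexes were not matched. In the FPKM table (fragments per kilobase, scaled to the library's total) the 3 DMSO libraries of 6 h listed *Xist*, which only cells with more than 1 X chromosome express, at 40.2 to 56 FPKM and 4 Y-linked genes at 0. The 3 C59 libraries of 6 h listed *Xist* at 29.5, 24.8 and 11.4 FPKM together with a Y-linked sum of 20.3, 19.8 and 33.2 FPKM, so that RNA of both sexes was present in each of them. At 12 h, DMSO replicate 2 held Y-linked RNA with hardly any *Xist* (0.048 FPKM), C59 replicate 1 held both, and the other 4 were female. Sex and treatment are therefore tied at 6 h and cannot be told apart there for a gene that differs between the sexes.

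Between 6 h and 12 h the C59 effect changed for many genes, and those called with an estimate beyond 1 were mostly upward. The change of effect passed upward for 894 genes (6.59%) and downward for 1564 (11.5%). Beyond 1 on the log2 scale the order was the other way round, with 184 genes called higher (1.36%) and 72 called lower (0.531%). Of these 256 genes, 103 had a mean of at least 5 CPM. That order was not seen in a test against a log2 change of 1 itself (glmTreat), which called 5 higher and 6 lower. The split of the small changes depended on scaling: with upper-quartile factors 1273 genes passed upward and 1021 downward. The median change of effect over all genes was -0.01. Counts for the gene lists below are to be read beside the 6.59% and 11.5% of all genes that passed.

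At 6 h, 54 genes were called higher with C59 (0.398%) and 108 lower (0.796%). At 12 h these numbers were 490 (3.61%) and 222 (1.64%). Of 712 genes called at 12 h, 84 had been called at 6 h too, 83 of them in the same direction. The other 628 were called at 12 h only, but for 360 of these the change of effect did not pass, so that a call at 12 h alone did not show a gene to be delayed. A gene is named delayed below where it was called at 12 h, had not passed at 6 h, and passed for the change of effect in the direction of the call. There were 175 such genes, 135 higher and 40 lower with C59. A further 91 had passed at 6 h with a change of less than 1 and then grew past it, 32 higher and 59 lower. Of the 162 genes called at 6 h, the change of effect was not detected for 121, grew for 12 and receded for 29. These classes rest on the same libraries as the values given for them, and they describe those values.

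**Figure D1:**
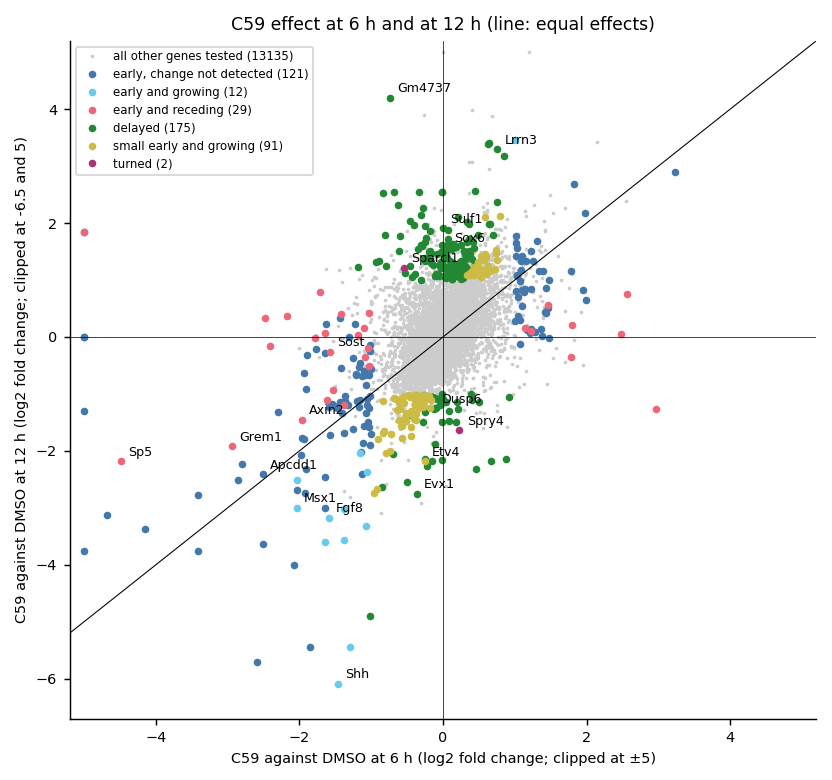
Each point is 1 of 13565 genes, placed by its log2 fold change of C59 against DMSO at 6 h (x axis) and at 12 h (y axis), with values beyond the axis limits drawn at the limit. The line marks equal effects, and colours mark the response classes. The 175 delayed genes lie along the vertical axis, *Shh* lies far under the line, and *Sp5*, *Grem1* and *Axin2* lie above it.

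Most feedback and target genes of canonical WNT signaling were already lower at 6 h, and between 6 h and 12 h they moved in both directions. Of 21 tested genes on the list of WNT feedback and targets, 19 passed lower at 6 h (10.9% of all genes did) and 18 at 12 h (25.9%), with median log2 effects of -1.06 and -1.09. For the change of effect 5 passed upward and 5 downward, with a median of 0.06. The study's own WNT panel, which its authors picked from these libraries, had 3 of 22 passing upward and 7 downward. The list and the panel share genes, among them *Axin2*, *Sp5*, *Dkk1*, *Tcf7* and *Nkd2*.

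*Nkd1*, an inhibitor that acts on Dishevelled, held its loss. It measured 83.7, 84.1 and 83.2 CPM with DMSO and 41.9, 37.4 and 40.7 CPM with C59 at 6 h, then 81.7, 84.2 and 82 CPM against 41.1, 37.2 and 38.2 CPM at 12 h. All C59 libraries were at about the same low level, and none overlapped with a control. Its change of effect was -0.03 ± 0.08 (adjusted p 0.852, 95% interval -0.201 to 0.149). *Apcdd1*, a membrane antagonist of WNT, was also level, at 16.3 to 17.2 CPM with C59 at 6 h and 15.7 to 22.7 CPM at 12 h against 93.4 to 106 CPM in controls, with a change of 0.10 ± 0.12 (95% interval -0.187 to 0.378). So was the receptor gene *Fzd10* (-0.09 ± 0.11, 95% interval -0.337 to 0.155). For *Bmp4* no change was detected (-0.22 ± 0.11), but its 95% interval, -0.466 to 0.0213, lay mostly on the side of a growing loss. *Bmp4* passed without C59 12 h replicate 1 (-0.31). The interval of *Notum*, which encodes a WNT deacylase, was wide (-1.4 to 0.72). Among all 121 early genes without a detected change, the 95% interval lay within 1 of zero for 23 and within 0.5 for 9. For most of them this design could not show that the effect held.

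Others came back while the drug effect elsewhere was still growing. *Axin2* (chromosome 11, 108920349 to 108950783), the scaffold of the β-catenin destruction complex and a direct target, was at 28.8, 29.1 and 26.3 CPM with C59 at 6 h and at 38.8, 38.5 and 43.6 CPM at 12 h. Controls held still, at 107, 117 and 104 CPM and then 112, 110 and 110 CPM. The 3 later C59 libraries were all above the 3 earlier ones, for a change of effect of 0.51 ± 0.09 (adjusted p 0.000741). *Dkk2*, a secreted antagonist, changed by 0.52 ± 0.15 (adjusted p 0.0277), which did not pass when any of 5 libraries was left out, and *Tnfrsf19*, a receptor gene on the target list, by 0.60.

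*Sp5* (chromosome 2, 70474923 to 70477729), a zinc finger factor and WNT target, had the largest recovery on the WNT list. With C59 it fell to 0.257, 0.146 and 0.358 CPM at 6 h and stood at 1.14, 1.05 and 0.505 CPM at 12 h. DMSO libraries gave 5.29, 6.79 and 5.69 CPM and then 3.83, 3.38 and 5.01 CPM. The change of effect was 2.31 ± 0.48 (adjusted p 0.00305), and it rests on 17 counts in the 3 C59 libraries of 6 h and 57 in those of 12 h.

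The promoter of *Sp5* is shown because it holds a TCF/LEF core, here the letters CTTTGAT on either strand, and that of *Dusp6*, a delayed gene described below, because it does not. Both are 300 bases from RefSeq (GRCm38.p6), 250 before and 50 after a transcription start, plus strand, chr2:70474673-70474972 and chr10:99262981-99263280. Capitals mark the match, which begins 104 bases before the start.
Sp5: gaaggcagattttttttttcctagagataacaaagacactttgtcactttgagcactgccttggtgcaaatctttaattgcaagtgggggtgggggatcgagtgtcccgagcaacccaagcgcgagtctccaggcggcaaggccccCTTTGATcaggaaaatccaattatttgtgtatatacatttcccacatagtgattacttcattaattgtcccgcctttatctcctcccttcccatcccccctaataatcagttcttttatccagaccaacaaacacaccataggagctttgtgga
Dusp6: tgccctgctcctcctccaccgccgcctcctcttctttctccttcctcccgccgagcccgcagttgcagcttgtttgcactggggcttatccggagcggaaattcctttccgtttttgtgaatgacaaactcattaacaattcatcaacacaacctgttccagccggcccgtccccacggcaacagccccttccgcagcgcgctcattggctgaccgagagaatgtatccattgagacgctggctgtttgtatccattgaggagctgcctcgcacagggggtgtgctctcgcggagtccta

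These letters occur in 3.73% of 32851 RefSeq promoters and in 2.44% of those of tested genes. They were in 9 of 126 promoters of the early genes without a detected change (7.14%), of which 2 belonged to the 76 promoters of lower genes (2.63%), in 2 of 27 of the receding genes (7.41%), in 6 of 184 of the delayed genes (3.26%) and in 2 of 90 of those that grew from a small early effect (2.22%). The 7 promoters of growing genes held none. The 2 receding genes with a match were *Sp5* and *Tnfrsf19*, and *Sox6*, *Col9a2* and *Cntn1* were among the delayed ones. With so few matches the shares are a description only, and the tables held promoters for 10544 of the tested symbols.

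BMP genes split in the same way. *Grem1* (chromosome 2, 113746164 to 113758646), which encodes the BMP antagonist of the feedback loop, measured 9.39, 8.25 and 9.94 CPM with C59 at 6 h and 20.9, 14.1 and 25.9 CPM at 12 h. Its controls were at 69.9, 72.3 and 69.3 CPM and at 74.2, 79.1 and 76.1 CPM, well clear of both C59 groups. The effect shrank from -2.94 to -1.92, a change of 1.02 ± 0.20 (adjusted p 0.00203). *Sost*, a secreted antagonist of WNT, regained most of its level (1.31 ± 0.22, adjusted p 0.000579), from 4.5, 5.56 and 6.18 CPM to 10.9, 12.3 and 14.6 CPM, and 2 of the 3 later values lay inside the range of the 12 h controls, 11.9 to 18 CPM. *Fst*, which encodes the activin antagonist follistatin, went from an effect of -1.18 to 0.03.

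*Msx1*, a homeobox gene downstream of BMP, went the other way. C59 libraries measured 41.4, 37.5 and 39.1 CPM at 6 h and 13.7, 13.3 and 18.5 CPM at 12 h, under controls of 159 to 164 CPM and then 112 to 132 CPM. The effect grew from -2.04 to -3.002, a change of -0.96 ± 0.13 (adjusted p 8.35e-05). *Dkk1*, another secreted antagonist and WNT target, grew from -1.07 to -2.37, *Tcf7*, which encodes a TCF factor, from -0.90 to -1.80, and *Nkd2* from -2.03 to -2.51. Over the 6 genes of the study's BMP panel, also picked from these libraries, 3 passed upward and 1 downward. Of 12 BMP response genes, 2 passed downward, *Msx1* and *Id1* (-0.54 ± 0.08), and none upward. That count is not far from the share of all genes that passed downward (11.5%), and *Msx1* is also on the panel.

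In the SHH and FGF arms of the loop losses grew or appeared only after 6 h. *Shh* (chromosome 5, 28456815 to 28467256), the ligand of the posterior signaling center, stood at 14.4, 14.3 and 15.4 CPM with DMSO and 5.15, 5.71 and 5.11 CPM with C59 at 6 h. At 12 h controls were at 11.6, 10.6 and 14.1 CPM and C59 libraries at 0.217, 0.0419 and 0.275 CPM. The 3 later C59 libraries, lower than all others, held 11 counts together. The change of effect was -4.62 ± 0.34 (adjusted p 5.00e-07), the most negative among called genes with a mean of at least 5 CPM.

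Transcripts of SHH target genes moved far less over these 6 hours. *Ptch1*, the SHH receptor and target, changed by -0.31 ± 0.10 (adjusted p 0.0467), and did not pass under 15 of 24 alternative settings. Its effect went from 0.37 at 6 h to 0.06 at 12 h, so it did not fall below controls. *Gli1*, the transcriptional effector that serves as the usual readout, stood at 48.9 to 54.7 CPM with C59 at 6 h and 39.8 to 59.1 CPM at 12 h, and its change of effect did not pass (-0.32 ± 0.15, adjusted p 0.143), though it did without C59 12 h replicate 3 (-0.49, adjusted p 0.00368). *Hhip* did not pass either (-0.38 ± 0.24). At 18 h, in a separate fit of 6 libraries, the *Gli1* effect was -0.87.

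*Fgf8* (chromosome 19, 45736798 to 45742915), the main FGF of the apical ridge, was at 10.8, 11.2 and 11.9 CPM with C59 at 6 h against 32.3 to 36.2 CPM in controls. At 12 h it was at 2.88, 1.55 and 3.12 CPM against 19.3 to 24.5 CPM. The groups did not overlap at either time, and the effect grew from -1.59 to -3.17, a change of -1.58 ± 0.21 (adjusted p 0.00011). *Fgf10*, the mesenchymal FGF that signals to the ridge, changed by -0.49 ± 0.12 (adjusted p 0.00988). Of 19 ridge genes, *Fgf8* alone passed downward, and *Trp63*, an ectoderm factor, passed upward.

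Most genes that FGF signaling through ERK induces fell relative to controls after 6 h. Of 19 on the list, 6 had passed lower at 6 h (10.9% of all genes did) and 2 higher, with a median effect of -0.04, and 14 passed lower at 12 h. *Dusp6* (chromosome 10, 99263231 to 99267489), an ERK phosphatase and feedback gene, had 221, 221 and 238 CPM with C59 at 6 h, just under the 245, 246 and 249 CPM of controls, and its effect did not pass (-0.12, adjusted p 0.07). At 12 h C59 libraries were at 104, 102 and 99 CPM and controls at 248, 229 and 253 CPM. The change of effect was -1.14 ± 0.06 (adjusted p 2.47e-08). *Etv4*, an ETS transcription factor, was already slightly lower at 6 h (-0.26, adjusted p 0.01) and then fell from 64.3, 61 and 59.6 CPM to 15.5, 17.1 and 16.1 CPM with C59 while controls ran from 66.9 to 79.2 CPM, a change of -1.92 ± 0.10 (adjusted p 5.11e-09). The effect on *Etv5* was -0.02 at 6 h, which did not pass, and -1.49 at 12 h.

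*Spry4*, which encodes a Sprouty inhibitor of ERK signaling, turned. At 6 h C59 libraries measured 46.6, 43.4 and 47.7 CPM, all above the 36.7 to 40.5 CPM of controls (0.23, adjusted p 0.015), and at 12 h they measured 14.8, 13.8 and 14.9 CPM, all under 43.3 to 46.3 CPM. Its change of effect was -1.87 ± 0.09 (adjusted p 5.11e-09). On this list 13 of 19 passed downward for the change of effect and none upward, with a median of -0.43 against -0.01 for all genes. The 10 genes of the study's FGF/HH panel, chosen from these libraries, had a median of -1.31. *Etv4*, *Spry4*, *Etv5*, *Dusp6* and *Dusp4* are on both.

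**Figure D2:**
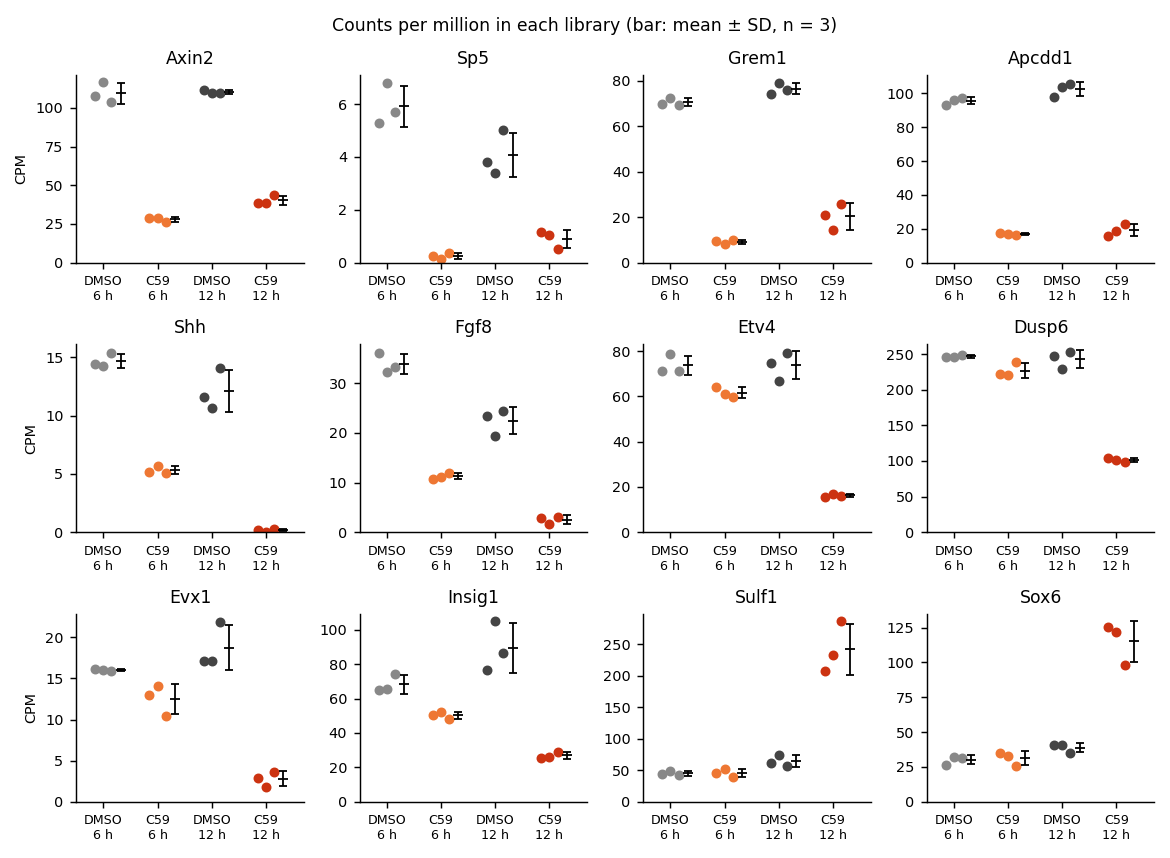
CPM of 12 genes (y axes, from 0) in the 12 libraries, by group, with the mean ± SD of each group (n = 3) beside the points. *Axin2*, *Sp5* and *Grem1* rose again in C59 libraries from 6 h to 12 h, *Apcdd1* stayed low, *Shh* and *Fgf8* fell further, and *Etv4*, *Dusp6*, *Evx1*, *Insig1*, *Sulf1* and *Sox6* differed from controls mainly at 12 h.

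Cartilage genes made up the clearest upward group, and most of the rise of the study's panel and of the matrix genes fell after 6 h. Of the 13 genes of the study's chondrogenesis panel, 1 passed higher at 6 h (7.52% of all genes did) and 12 at 12 h (23.2%). For the change of effect 11 passed upward and none downward, with a median of 1.18. That panel was picked from these libraries. On lists written from general knowledge, 8 of 16 cartilage matrix genes passed upward and none downward (median 0.79), as did 5 of 11 joint interzone genes (median 0.48). Of the matrix genes that passed, *Col2a1*, *Col9a2* and *Col9a3* are also on the panel. Of 15 chondrogenic transcription factors, 7 passed upward and 2 downward, the latter being *Pax1* and *Pax9*. On this list 5 had passed higher at 6 h (7.52% of all genes did) and 1 lower. Its median effect was 0.439 at 6 h and 0.719 at 12 h. Of its genes that passed upward, *Sox9*, *Sox5* and *Sox6* are also on the study's panel.

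*Sox9*, the master regulator of cartilage fate, was the early member of the study's panel. It measured 377, 336 and 365 CPM with C59 at 6 h, all above 206 to 225 CPM in controls, and 680, 582 and 536 CPM against 244 to 284 CPM at 12 h. Its effect went from 0.72 to 1.19, a change of 0.47 ± 0.11 (adjusted p 0.00606). The effects on its partners had not passed at 6 h. *Sox6* (chromosome 7, 115470872 to 116038796) stood at 35, 32.9 and 25.7 CPM with C59 at 6 h, overlapping with the 26.5, 32.4 and 31.4 CPM of controls, and then at 126, 122 and 98.3 CPM against 41, 40.9 and 34.8 CPM. Its change of effect was 1.51 ± 0.16 (adjusted p 1.52e-05), and that of *Sox5* was 1.18 ± 0.10 (adjusted p 1.71e-06).

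*Sulf1* (chromosome 1, 12692277 to 12861192), an extracellular enzyme that trims sulfate from heparan chains, had the largest change of effect in that panel. C59 libraries held 45.8, 51.4 and 38.8 CPM at 6 h, the same range as the controls at 44.1, 49.5 and 42 CPM. At 12 h they held 207, 233 and 286 CPM against 61.8, 74.8 and 56.5 CPM. The change was 1.91 ± 0.17 (adjusted p 3.90e-06).

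Some matrix genes, 4 of the 16, also rose in controls over the same hours. *Matn4*, a matrilin of cartilage, went from 4.75, 7.51 and 5.22 CPM to 18.9, 23.9 and 17.3 CPM in controls and from 6.13, 7.32 and 3.58 CPM to 80, 51.4 and 37.4 CPM with C59. Its change of effect of 1.52 ± 0.40 (adjusted p 0.0149) was a steeper version of a rise that both arms made. Of the collagen IX genes, *Col9a1* changed by 1.13 ± 0.10, *Col9a2* by 1.08 ± 0.27 and *Col9a3* by 1.22 ± 0.29. *Col2a1* changed by 0.81 ± 0.17. *Nkx3-2*, a repressor of cartilage maturation, was near the limit of detection until C59 12 h libraries reached 9.51, 9.3 and 14.5 CPM (2.33 ± 0.60, adjusted p 0.0127), a call lost without DMSO 6 h replicate 1 or 2. *Acan*, the aggrecan gene of mature cartilage, was at or under 4.57 CPM throughout and did not pass (adjusted p 0.686).

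Receptors and antagonists of BMP that accompany condensation were delayed as well. *Bmpr1b* went from 29.4, 26.4 and 27.6 CPM with C59 at 6 h to 59.2, 62.9 and 71.9 CPM at 12 h, against 24.6 to 29.2 CPM in all 6 controls (1.10 ± 0.11, adjusted p 7.74e-06). *Nog* changed by 1.64 ± 0.34 (adjusted p 0.00345) and *Bmper* by 1.38 ± 0.24 (adjusted p 0.000797). Together with *Grem1* and *Fst*, that made 5 of 21 BMP ligands, receptors and antagonists that passed upward (6.59% of all genes did). All of these but *Fst* are also on the study's panels. *Bmp2* passed downward (-0.54 ± 0.15, adjusted p 0.0215), but not when any of 4 libraries was left out.

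Most genes of DNA replication, mitosis and sterol synthesis fell relative to controls after 6 h. Of 32 DNA replication genes 6 had passed lower at 6 h (10.9% of all genes did). For the change of effect 30 passed downward (11.5% of all genes did) and none upward (median -0.48). *Rrm2*, a subunit of the enzyme that makes deoxynucleotides, had 411, 397 and 418 CPM with C59 at 6 h and 175, 188 and 201 CPM at 12 h, against 373 to 445 CPM in the 6 controls. Only the 12 h C59 libraries stood well apart, for a change of -0.97 ± 0.07 (adjusted p 5.00e-07). *Cdc6*, which loads the replicative helicase, changed by -1.07 ± 0.07. Of 28 mitosis genes, 5 had passed higher (7.52% of all genes did) and none lower at 6 h. For the change of effect 22 passed downward (median -0.45), among them *Bub1* (-0.65 ± 0.07) and *Cdk1* (-0.51 ± 0.07). Among cyclins and their partners, *Ccne2* (-0.78 ± 0.10), *Ccne1* (-0.72 ± 0.07) and *E2f1* (-0.70 ± 0.08) led the 8 of 19 that passed downward, and the CDK inhibitor gene *Cdkn1c* (0.47 ± 0.10) was 1 of 2 that passed upward.

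Sterol genes gave a nearly complete list. At 6 h, 12 of 24 genes of cholesterol and fatty acid synthesis had already passed lower (10.9% of all genes did), with a median effect of -0.155. All but 1 of the 24, 23, passed downward for the change of effect (median -0.68), and 7 of them rose in controls between 6 h and 12 h. *Insig1* (chromosome 5, 28071363 to 28078662), which retains the SREBP complex in the endoplasmic reticulum and is itself an SREBP target, stood at 50.1, 52.1 and 48.4 CPM with C59 at 6 h against 65, 65.4 and 74.3 CPM. At 12 h it stood at 25.4, 26.1 and 29.2 CPM against 76.8, 105 and 86.5 CPM. The C59 libraries fell while the controls rose, a change of -1.29 ± 0.13 (adjusted p 1.11e-05).

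Ribosome biogenesis was lower at both times. At 6 h 21 of 23 genes had passed lower already (median -0.45), and 15 passed downward for the change (median -0.24), a smaller step than in the sterol list. With upper-quartile factors 8 passed downward, and 8 to 16 did when single libraries were left out, with 8 for any of 4 of them. *Nop56*, a nucleolar protein gene, changed by -0.32 ± 0.07, and *Mycn*, a regulator of this program, was low at both times without a detected change (-1.48 at 6 h, -1.25 at 12 h, 0.23 ± 0.11, adjusted p 0.141). Among serine, one-carbon and ATF4 genes 12 of 24 had passed lower at 6 h (10.9% of all genes did) and 1 higher. For the change of effect 11 passed downward, led by *Mthfd2* (-0.98 ± 0.08) and *Psat1* (-0.91 ± 0.07), and 2 passed upward, *Trib3* and *Ddit4*. Of 14 heat shock genes and chaperones 9 passed downward (median -0.37), and of 25 genes of glycolysis and hypoxia 5 did (median -0.02), beside 11.5% of all genes.

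**Figure D3:**
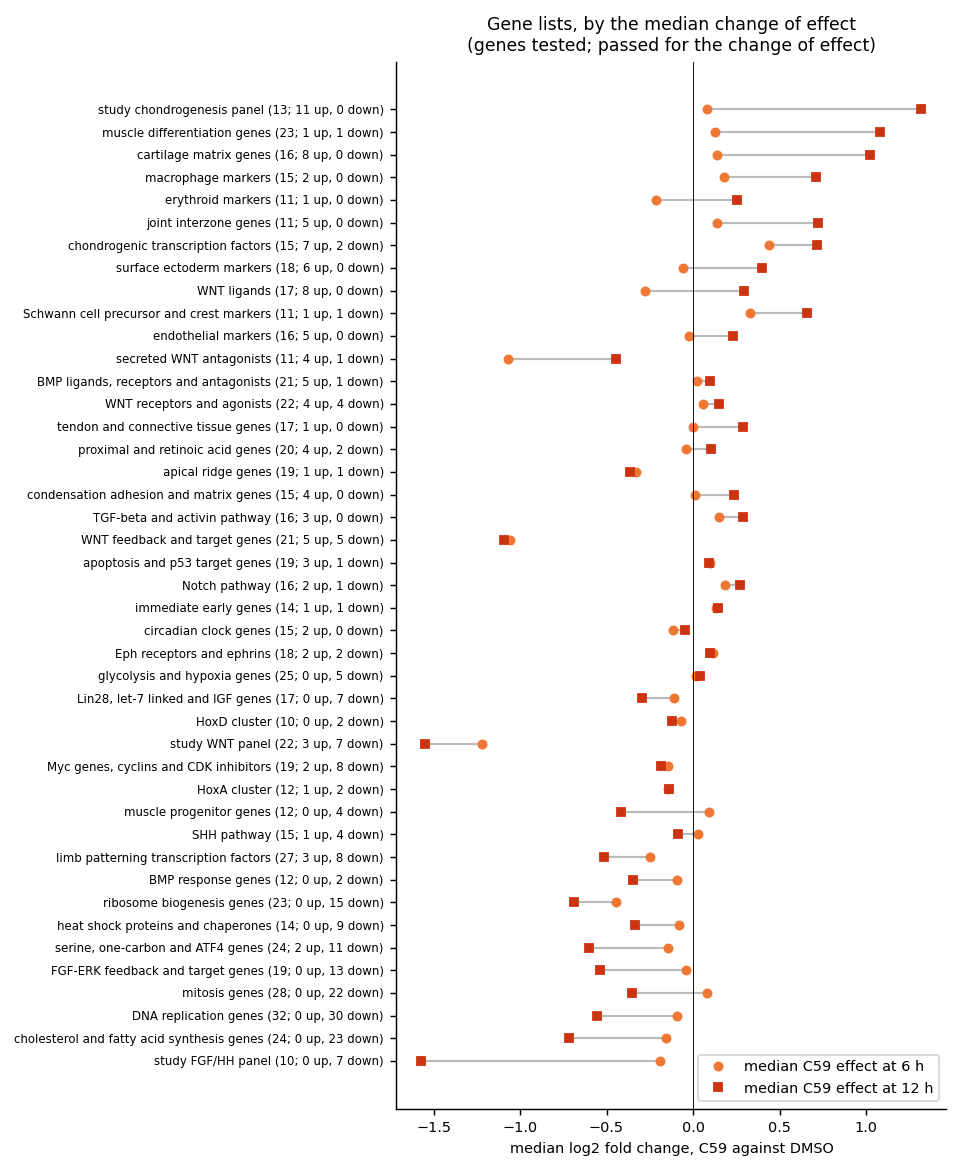
Median log2 fold change of C59 against DMSO (x axis) at 6 h (circles) and at 12 h (squares) for the gene lists with at least 10 tested genes, ordered by the median change of effect. Labels give the genes tested and how many passed upward and downward for the change of effect. The FGF/HH panel and the sterol, replication and mitosis lists moved down between the times, and cartilage lists moved up.

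Some genes of muscle progenitors fell relative to controls, and few muscle differentiation genes passed. Among genes of migrating progenitors 4 of 12 passed downward for the change of effect (11.5% of all genes did) and none upward (median -0.11). At 6 h 4 had passed lower (10.9% of all genes did). *Lbx1*, a homeobox gene of these cells, was at 32.9, 34.4 and 35.2 CPM with C59 at 6 h, slightly above 29.7 to 30.1 CPM in controls, and at 13.9, 12.9 and 10.4 CPM against 22 to 29.9 CPM at 12 h. Its change of effect was -1.33 ± 0.15 (adjusted p 2.60e-05). *Pax3*, the regulator upstream of it, was already low at 6 h (-0.79) and fell to 3.48, 3.85 and 2.71 CPM at 12 h against 11.2 to 15.7 CPM, a change of -1.25 ± 0.21 (adjusted p 0.000573). *Myf5* changed by -1.17 ± 0.16 and *Met* by -0.76 ± 0.14.  In whole limb buds fewer cells of a type and less RNA per cell cannot be told apart.

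Differentiation genes of muscle had a median change of 0.95, but 1 of 23 passed upward, *Chrna1*, and 1 downward, *Myod1*. *Myod1*, the determination factor, was high early: 40.9, 41.1 and 32.8 CPM with C59 against 13.1 to 15.2 CPM at 6 h, and 43.6, 42 and 29.8 CPM against 24 to 30.4 CPM at 12 h. It changed little in C59 and rose in controls, so the effect receded by -0.91 ± 0.19 (adjusted p 0.00377). DMSO 12 h replicate 2 had *Actc1* at 44.8 CPM where the other controls had 11.9 and 11.5 CPM, and without it 13 of the 23 passed upward and the median was 1.88. Without C59 6 h replicate 2 the count was 5, and without any other single library it was 1 or 2. DMSO 12 h replicate 2 was also the only one of the 12 with Y-linked RNA and hardly any *Xist*.

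Patterning genes changed modestly, and few of the *Hox* genes passed. In the HoxA list *Evx1* (chromosome 6, 52313498 to 52318378), a homeobox gene beside the cluster, went from 13, 14.1 and 10.48 CPM with C59 at 6 h to 2.94, 1.84 and 3.62 CPM at 12 h. Controls stayed between 16 and 21.9 CPM. The change was -2.39 ± 0.24 (adjusted p 7.74e-06), against -0.44 for *Hoxa7* and 0.86 for *Hoxa4*, the other members that passed. *Hoxd13*, the most distal of the HoxD genes, rose in controls from 186 to 196 CPM to 255 to 293 CPM and did not pass between the times in C59, a change of -0.60 ± 0.16 (adjusted p 0.0172) that did not pass without DMSO 12 h replicate 3 or C59 12 h replicate 2. *Hoxa13* did not pass (-0.43 ± 0.16, adjusted p 0.07), but did without C59 12 h replicate 3 (-0.61, adjusted p 0.000533). Of 27 limb patterning factors 8 passed downward (11.5% of all genes did), led by *Prrx2* (-0.94 ± 0.07), *Sall4* (-0.93 ± 0.15) and *Sall3* (-0.87 ± 0.15). Upward 3 passed (6.59% of all genes did), of which none passed without DMSO 12 h replicate 1.

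Genes of retinoic acid metabolism, which marks the proximal limb, moved both ways. *Aldh1a2*, the enzyme that makes retinoic acid, stood at 9.65, 16.6 and 10.4 CPM with C59 at 6 h, overlapping with controls at 9.86 to 13 CPM, and at 51.5, 57 and 66.5 CPM at 12 h against 14.6, 26.8 and 12.3 CPM. It changed by 1.65 ± 0.33 (adjusted p 0.0027). *Crabp1*, which binds retinoic acid in the cytoplasm, changed by -1.08 ± 0.12, *Cyp26a1*, which degrades it, by 0.86 ± 0.22 and *Dhrs3*, a reductase of its precursor, by 0.96 ± 0.15. *Meis1*, a proximal marker, did not pass (-0.06 ± 0.15). Over the list, 4 of 20 passed upward (6.59% of all genes did) and 2 downward (11.5%).

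Several WNT ligand genes rose relative to controls. Of 17 tested, 7 had passed lower at 6 h (10.9% of all genes did) and 1 higher (7.52%). For the change of effect 8 passed upward (6.59% of all genes did) and none downward (median 0.45). With embryo sex as a term 4 passed upward. When single libraries were left out 4 to 8 did, fewest without DMSO 12 h replicate 1. *Wnt11*, expressed in ectoderm and proximal mesenchyme, was lower with C59 at 6 h, at 15, 19.5 and 13.8 CPM against 23.4 to 29.6 CPM, and higher at 12 h, at 43.9, 40.2 and 45.6 CPM against 30.6 to 34 CPM. The 2 times differed by 1.22 ± 0.16 (adjusted p 6.76e-05). *Wnt3*, the ectodermal ligand needed for the ridge, changed by 0.89 ± 0.17 (adjusted p 0.00183) and *Wnt9b* by 0.91 ± 0.20. *Wnt5a*, the mesenchymal ligand of the noncanonical branch, did not pass (0.12 ± 0.09, adjusted p 0.432). Among 22 receptors and agonists 4 passed each way (8 upward without C59 12 h replicate 3), and *Rspo1*, an R-spondin that amplifies WNT signals, was the largest at -2.01 ± 0.38 (adjusted p 0.00152). *Rspo1* measured 10, 14.7 and 9.36 CPM with C59 at 6 h and 3.48, 4.23 and 5.37 CPM at 12 h, and its 12 h controls were spread from 11.2 to 28.8 CPM.

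Markers of other cell types were compared with the same background, 6.59% of genes upward and 11.5% downward. For surface ectoderm 6 of 18 genes passed upward, *Krt14*, *Krt8*, *Trp63*, *Wnt6*, *Epcam* and *Krt5*, and the summed level of the list was 437 to 472 CPM in controls and 553 to 772 CPM in C59 libraries at 12 h, after 436 to 480 CPM and 459 to 462 CPM at 6 h. With embryo sex as a term 2 of the 18 passed upward, 11 did when C59 12 h replicate 1 was left out and 3 when DMSO 12 h replicate 1 was. *Epcam* and *Wnt6* did not pass when any of 8 and 4 libraries, respectively, was left out. Several of the ligands are ectodermal, *Wnt6* is on both lists, and the part of a shift in ectoderm in their change was not tested. Of 16 endothelial markers 5 passed upward, with sums of 527 to 586 CPM in controls and 646 to 715 CPM with C59 at 12 h. At 6 h the sums had been 617 to 628 CPM and 623 to 647 CPM. Between the times 3 of the 16 passed lower in controls, and 5 passed higher in C59. Macrophage markers summed to 58 to 66.1 CPM in controls and 97.9 to 101 CPM with C59 at 12 h, and 2 of 15 passed. Of 11 erythroid markers *Hbb-bs* passed, from an effect of -0.78 to 0.43 (8 of the 11 passed without DMSO 12 h replicate 3 and 6 without C59 12 h replicate 1), and of 6 neuron markers *Stmn2*. Schwann cell precursor and crest markers gave 1 each way, *Erbb3* (0.81 ± 0.17) and *Gfra3* (-1.52 ± 0.40). Their part in the results above was not tested.

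The remaining lists are given by their counts, to be read beside 6.59% of all genes upward and 11.5% downward. Several of these counts were close to those shares. Upward there passed 3 of 16 TGF-beta and activin genes, 4 of 15 condensation genes (1 without C59 6 h replicate 1), 1 of 17 tendon genes (*Fmod*, 1.41 ± 0.23) and 2 of 15 clock genes (*Tef*, and *Dbp*, which did not pass when any of 7 libraries was left out). Notch gave 2 upward and 1 downward of 16, Eph receptors and ephrins 2 each way of 18, immediate early genes 1 each way of 14 and apoptosis and p53 targets 3 upward and 1 downward of 19. On the list linked to Lin28 and let-7, 7 of 17 passed downward (3 with limma on log2(FPKM + 0.1)), with *Lin28b* at -0.59 ± 0.10 and *Igf2bp1* at -0.56 ± 0.10.

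Among called genes with at least 5 CPM, the 2 largest increases belonged to genes of no list. *Lrrn3*, a membrane protein gene with leucine-rich repeats, was at 2.83, 4.54 and 3.63 CPM with C59 at 6 h and at 25.9, 27.4 and 37.6 CPM at 12 h, against 1.64 to 4.27 CPM in all controls (2.54 ± 0.36, adjusted p 0.000141). *Gm4737*, a predicted gene that may share reads with related sequences, changed by 4.94 ± 0.55 (adjusted p 1.79e-05), with 34.1, 17.6 and 14.1 CPM in C59 libraries at 12 h and at most 2.29 CPM elsewhere. *Scrn1*, *C1qtnf3* and *Acta2*, the last a smooth muscle actin, changed by 1.52 ± 0.12, 1.56 ± 0.28 and 1.65 ± 0.37.

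*Sparcl1*, a secreted matrix protein gene, turned upward: 14.8, 14.2 and 11.3 CPM with C59 were all under 19.3 to 20.1 CPM at 6 h, and 46.5, 43.6 and 36.6 CPM were all above 17.3 to 19.2 CPM at 12 h (1.76 ± 0.15, adjusted p 1.71e-06). In all, 62 genes passed at both times with opposite signs and for the change itself, 28 of them higher at 12 h and 34 lower. Among decreases, *Gm14226* (-2.20 ± 0.21), *Gja3*, a connexin gene (-1.75 ± 0.21), and *Aass*, an enzyme of lysine breakdown (-1.55 ± 0.19), were large and on no list. The predicted genes *Gm14226* and *Gm7324* (-1.52 ± 0.27) may also share reads with related sequences, which was not tested.

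A change of effect can come from either arm, and here it mostly came from C59. Over these 6 hours 335 genes passed upward (2.47%) and 168 downward (1.24%) in DMSO, while 2841 passed upward (20.9%) and 3225 downward (23.8%) in C59. Of the 184 genes called higher for the change of effect, 158 moved up in C59 without passing in DMSO, 12 moved up in both, 1 moved in opposite directions and 3 moved down in DMSO alone. For 10 neither arm passed. Of the 72 called lower, 50 moved down in C59 without passing in DMSO, 5 moved down in both, 7 moved in opposite directions and 8 moved up in DMSO alone, and for 2 neither passed. The 2 arms share no library, but both enter the change of effect.

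**Figure D4:**
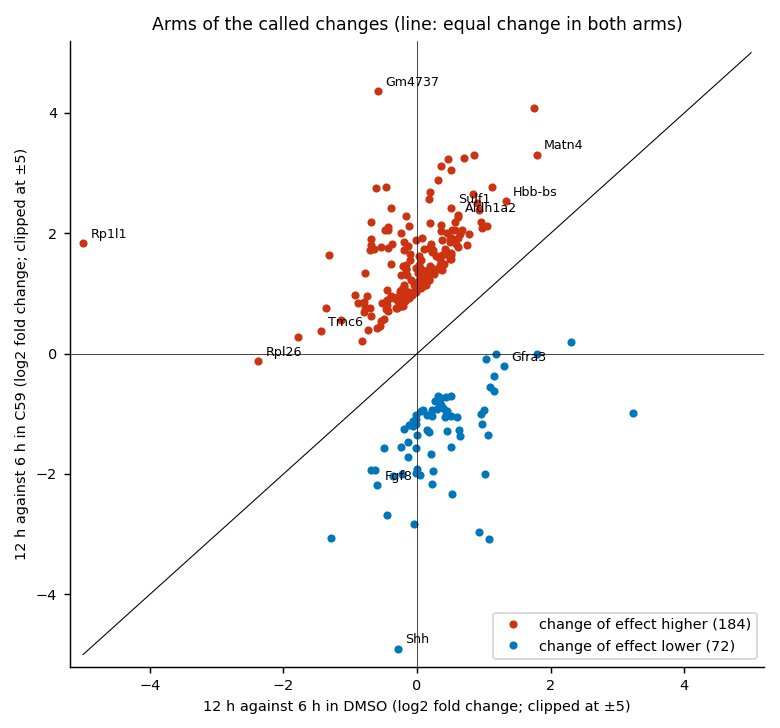
The 256 genes called for the change of effect, placed by their log2 change from 6 h to 12 h in DMSO (x axis) and in C59 (y axis), with values beyond 5 drawn at the limit. Distance from the line is the change of effect. Most genes lie near the vertical axis, which is a change in C59, and *Tmc6*, *Rpl26* and *Rp1l1* lie to the left, which is a fall in DMSO.

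For a few genes the DMSO libraries of 6 h stood apart from all others. *Tmc6*, a transmembrane channel-like gene, stood at 56.3, 56.6 and 57.3 CPM there and at 19.8 to 28.9 CPM in the other 9 libraries (1.82 ± 0.09, adjusted p 5.11e-09). *Rpl26*, a ribosomal protein gene with many copies, was at 146, 132 and 245 CPM there and at 29.3 to 35.8 CPM elsewhere. *Nr1h5* had 17.8, 15.8 and 19.3 CPM in these 3 libraries and no count in the other 9, at least 329-fold lower when a floor of 3 counts over each group is set. Its change of effect could not be fitted, since both 12 h groups were at 0, and it is counted among the 121 early genes without a detected change. *Rp1l1* was at 5.7, 7.88 and 11.1 CPM and had no count in C59 at 6 h or DMSO at 12 h, at least 153-fold lower, and its call was lost when any of 6 libraries was left out. These were the 2 genes of those tested whose 3 libraries of DMSO at 6 h all exceeded every other library by more than 5 times. The controls of 12 h were as far from those of 6 h as the C59 libraries were.

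At later times the classes kept different shares of their effect. Of the 135 delayed genes higher with C59, 133 could be tested at 18 h and 40 passed higher there (3.46% of all genes did), with a median effect of 0.44 after 1.38 at 12 h. At 24 h 16 passed higher (2.82%) and 8 lower. Of the 40 lower, 14 of 35 passed lower at 18 h (3.62%) and 5 of 37 at 24 h (3.63%). The 11 lower genes that grew from an early effect had the deepest median at 12 h, -3.17, and 9 of them still passed lower at 18 h, among them *Shh* (-3.32) and *Dkk1* (-2.23), with a median of -1.28. Of the 21 lower genes that receded, 1 of 20 passed lower at 18 h. Of the 76 lower early genes without a detected change, 11 of 59 passed lower at 18 h, with a median of -0.17. When all 30 libraries were fitted together, 4 of 21 and 22 of 76 of these last 2 classes passed lower at 18 h. In that fit, 1861 of 6210 genes that were in no class and lower at 12 h also passed lower at 18 h. Of the 135 delayed higher genes 5 passed higher at 24 h, against 122 of 6495 genes in no class and higher at 12 h.

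**Figure D5:**
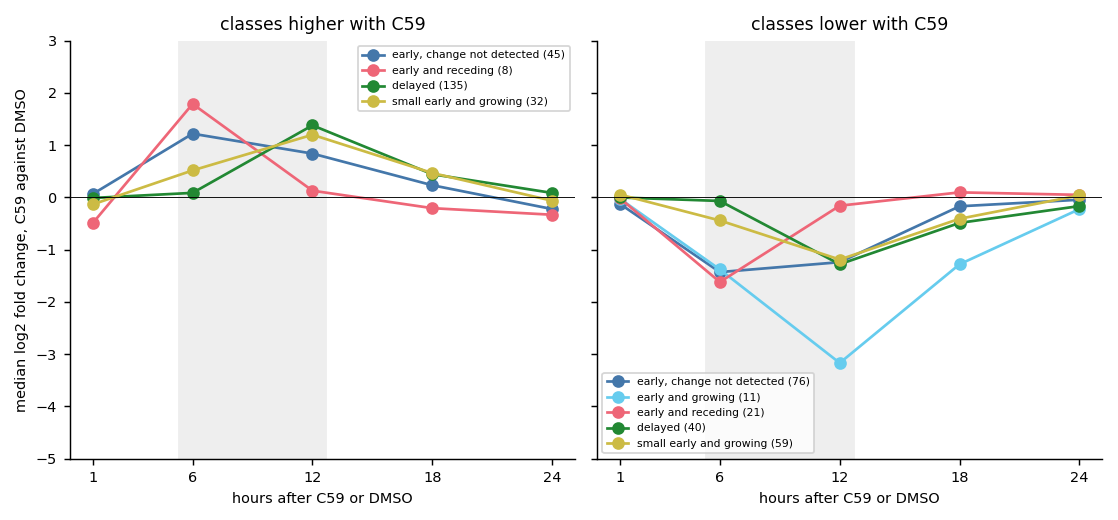
Median log2 fold change of C59 against DMSO (y axis) of the response classes at 1, 6, 12, 18 and 24 h (x axis), for genes higher with C59 (left) and lower (right), with the number of genes in the legend and classes under 5 genes left out. The shaded times chose the classes, and the other times were fitted on their own 6 libraries. The 11 growing genes were lowest at 12 h and 18 h, and all medians drawn were between -0.332 and 0.0857 at 24 h.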

How the data were processed

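RNA was taken from forelimb buds, and 12 of 30 libraries were used for tests, with those of 18 h and 24 h for later values. Per the submitters' processing notes, the tools upstream were cutadapt 1.16 for trimming and STAR 2.7.0e for alignment, and the genome build was mm10. The deposited table of gene counts holds unnormalized fragments per autosomal gene, and the strand of counting is not given in the sources used here. The authors computed the deposited FPKM table with Cufflinks 2.2.1, used here for the sex genes and as an alternative.

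Genes were matched to GENCODE M21 (50628 of 50833). The quasi-likelihood test of edgeR 4.0.16, run under R 4.3.3, was applied to protein-coding genes (TMM, filterByExpr with a minimum count of 10 and total of 15), with 4 groups and no covariate. The biological coefficient of variation was 6.16%. SEs came from the F statistic, and 95% intervals used 8 degrees of freedom. Floors of 3 counts cover counting error only. The code was tested on simulated counts.

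The groups, 46 gene lists and the naming rule were chosen with earlier results of these data known, and 4 lists are the study's panels. Named genes were the panels, the 12 largest called changes each way with at least 5 CPM, up to 4 members of each list that passed with its defining members, leading genes of each class, and genes at 0 in a group. *Tnfrsf19*, *Krt5*, *Cntn1*, *Ddit4*, *Pax1* and *Pax9* were named after their values were seen. Alternatives were DESeq2 1.42.0, other scalings, filters and gene sets, all libraries, limma 3.58.1 on FPKM, a replicate block, embryo sex and leaving out libraries. Some named genes are not reported here.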

Additional observations from a re-analysis of the deposited data

Results flagged for a closer look

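The effect of C59 differed between the 2 times for 184 genes called higher and 72 called lower by the interaction test in edgeR. Among the named genes, 9 passed with opposite signs at 6 h and 12 h and for the change itself. Upward, these were *Tmc6* (1.82), *Sparcl1* (1.76), *Wnt11* (1.22), *Hbb-bs* (1.21) and *Dhrs3* (0.96). Downward, these were *Spry4* (-1.87), *Aass* (-1.55), *Sall3* (-0.87) and *Igf2bp1* (-0.56).

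Outside the count table, the 4 Y-linked genes *Ddx3y*, *Eif2s3y*, *Kdm5d* and *Uty* summed to 20.3, 19.8 and 33.2 FPKM in the 3 C59 libraries of 6 h and to 0 in all 3 controls of that time. These values stand beside *Xist* in the same libraries.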

How the results depend on the processing

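Of 228 named genes, 146 kept their direction and side of the threshold under all 24 settings, 52 fell below the threshold under at least 1 and none changed direction while past it. Called changes ran from 150 to 259 genes higher and from 57 to 86 lower when each library was left out, delayed genes from 153 to 251 and early genes without a detected change from 81 to 131. DMSO 12 h replicate 2 gave the 259 and the 251, and C59 6 h replicate 1 the 81. A mean of at least 1 CPM left 78 early genes without a detected change, the sex term 77 and limma on log2(FPKM + 0.1) 63. With limma on log2(FPKM + 1), 54 genes were called higher and 20 lower, with 74 delayed and 10 early without a detected change. Without a minimum fold change these were 894, 1564, 1602 and 1687, and with glmTreat 5, 6, 29 and 10. The cause was not tested. The replicate block called 193 higher and 76 lower, with 180 delayed and 116 early genes. Same-numbered libraries correlated from -0.08 to 0.302 in their deviations, over 0.1 in 7 of 18 pairs. Differently numbered libraries correlated from -0.273 to 0.157. Whether the numbers pair the samples was not tested. With embryo sex as a term, from Y-linked FPKM, 298 genes were called, 165 of them among the 256. Chosen after seeing the data, leaving out both 12 h libraries with Y-linked RNA gave 256 higher and 79 lower. Low counts limit genes such as *Sp5*, and 3 libraries a group limit what could be detected.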
